A study of Homo sapiens with 15 samples.

Results

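The oxidative phosphorylation genes of LNCaP cells were taken from the table by name: protein-coding rows that begin with MT-, NDUF, UQCR, COX4, COX5, COX6, COX7, COX8 or ATP5, and CYC1, without pseudogenes and antisense rows. The rule found 99 of 17272 genes. Of these, 13 were mRNAs of the mitochondrial genome and 73 were nuclear-encoded subunits, 37 of complex I, 9 of complex III, 12 of complex IV and 15 of complex V. A further 7 rows were assembly factors of complex I (NDUFAF1 to NDUFAF7) and 6 were gene copies, isoforms or proteins that are no subunit. Another 42 rows with those name starts were pseudogenes, antisense rows or not protein-coding, and were left out.

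LNCaP is a human prostate cancer line that carries the androgen receptor and depends on androgen. By the labels, 10 libraries were from cells treated with 1 nM R1881, a synthetic androgen, and DMSO, and 5 were from cells treated with 1 nM R1881 and 2 µM darolutamide, an antagonist of the androgen receptor, for 22 h. All cells were held in steroid-depleted serum beforehand, and there were no libraries without R1881. The comparison asks which genes darolutamide moves while androgen is present. The methods of the study assign 5 libraries to R1881 and 10 to the combination, and give R1881 at 1 µM. The labels were followed in both.

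Oxidative phosphorylation couples the oxidation of NADH and succinate to the synthesis of ATP in the inner mitochondrial membrane. Complexes I, III and IV pump protons as electrons pass to oxygen, and complex V (ATP synthase) uses the gradient to make ATP. Their subunits come from 2 genomes. The mitochondrial genome is transcribed as long precursors that are cut into mRNAs, rRNAs and tRNAs inside the organelle, while all other subunits are transcribed in the nucleus, translated in the cytosol and imported. Prostate epithelium is known for an unusual citrate metabolism, and prostate tumours for a greater reliance on respiration.

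Values are the deposited expression values, a scaled signal of 1 factor per library that the authors call CPM (counts scaled to library size). The libraries held 15830745 to 25317567 reads. Fold changes are differences of log2(value + 0.5), darolutamide with R1881 minus R1881 alone, with standard errors (SE) and adjusted p from limma's trend test over all genes, two-sided, at a threshold of 0.05. The methods of the study call the libraries biological replicates, while nothing in the labels ties them to separate cultures, so the p-values measure the spread between libraries, which may be technical. The labels number the R1881 libraries 51 to 55 and 71 to 75 and the combination libraries 86 to 90, so that no run of numbers held both treatments. What these numbers stand for is not given, and an effect tied to them cannot be told apart from that of darolutamide. A second number in the labels, after the letter S, was mixed between the treatments. Combination replicates 3 and 4 stood apart in the GC-rich genes, as described with the subunits they touch. The libraries are of bulk RNA, so that fewer cells with a transcript and less of it per cell cannot be told apart. Of 9 luminal prostate markers, 9 passed the test, 6 of them lower and 3 higher. Of 6 fibroblast markers, 3 were in the table and all 3 were higher with darolutamide, with a summed level of 6.36 to 10.5 with R1881 and 13.5 to 30.6 in the combination. Their means with R1881 were low, from 0.21 to 6.03. The endothelial marker VWF rose (0.50), and the basal marker KRT14 (-0.43) and the muscle marker ACTA1 (-0.41) fell. KRT14 had a mean of 1.02 with R1881 and did not pass without combination replicates 3 and 4 (adjusted p = 0.0629 from limma). The part of these markers in the results was not tested. None of 4 immune markers was listed.

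The mitochondrial genome is so compact that some genes overlap, and its older copies lie in the nuclear chromosomes, which bears on how reads were assigned. The first sequence below is from the mitochondrial genome of GRCh38, plus strand, chrM:8517-8582, and holds in capitals the 46 bases that belong to both MT-ATP8 and MT-ATP6. The second is the start of MT-CO1, chrM:5904-5953, plus strand. The same 50 bases stand, without a difference, on chromosome 1, plus strand, chr1:631074-631123, in the run of mitochondrial copies to which MTCO1P12 belongs, and a read of 50 bases from either place would be the same.

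MT-ATP8 and MT-ATP6: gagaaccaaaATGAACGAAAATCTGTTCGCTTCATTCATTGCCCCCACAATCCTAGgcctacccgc
MT-CO1 start: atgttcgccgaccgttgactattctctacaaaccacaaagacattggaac

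All 13 mitochondrially encoded mRNAs rose with darolutamide. Their log2 fold changes lay between 0.24 and 0.41 with a median of 0.28, while the median over all 17272 genes was 0.00. Over all genes, 22.8% were higher and 23.7% were lower in the same test. The mRNAs of complex I had a median of 0.30 (7 genes), the single mRNA of complex III changed by 0.26, those of complex IV had a median of 0.28 (3 genes) and those of complex V of 0.34 (2 genes). The rise was kept by all 13 when the reads were scaled by library totals, with a median of 0.35, and by 10 of 13 when only the R1881 libraries 51 to 55 served as the control.

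MT-CO1 encodes the catalytic subunit of cytochrome c oxidase, with the site where oxygen is reduced. Its value with R1881 was 5782 at the lowest, 5990 at the median and 6628 at the highest, and the combination libraries were at 7300, 7521, 8117, 6678 and 7541. The 5 combination libraries lay above all 10 R1881 libraries (log2 fold change 0.28, SE 0.043, adjusted p = 4.12e-05 from limma). MT-CO3, a further core subunit of complex IV, was at 2398, 2722 and 3044 (lowest, median, highest) with R1881 and at 3438, 3360, 3700, 3053 and 3435 in the combination. Here too the groups did not overlap, though combination replicate 4 was only just above the highest R1881 library (log2 fold change 0.31, SE 0.051, adjusted p = 8.11e-05 from limma). MT-CO2, which takes electrons from cytochrome c, went from 2158 ± 118 (SD, n = 10) to 2592 ± 173 (SD, n = 5), a log2 fold change of 0.26 (SE 0.045, adjusted p = 9.59e-05 from limma).

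**Figure D1:**
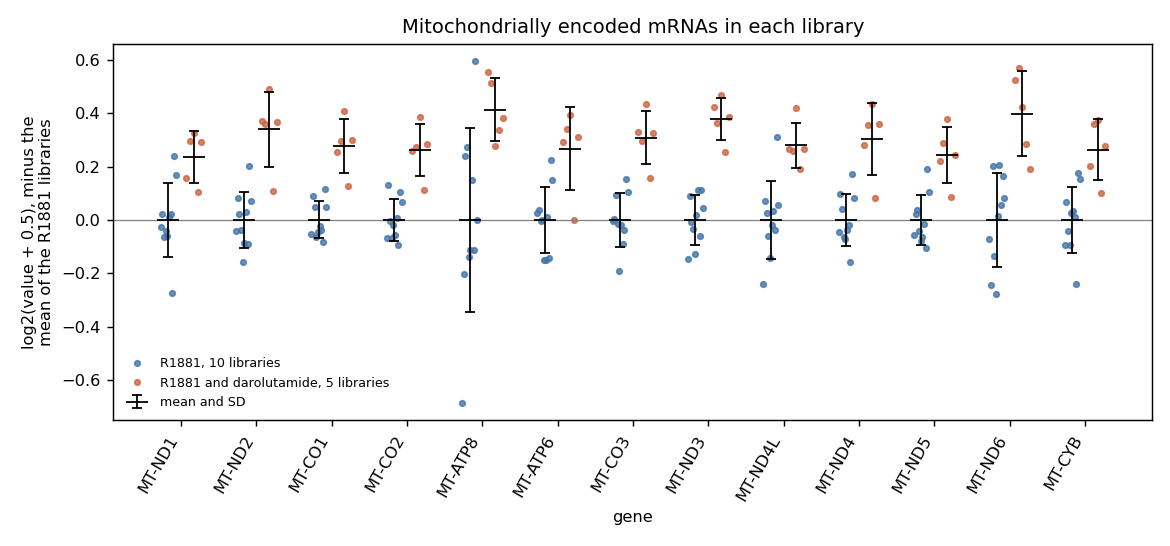
Log2(value + 0.5) of each mitochondrially encoded mRNA in each library, minus the mean of the 10 R1881 libraries, with 1 point per library and the mean and SD of each group, genes in order along the genome. The combination means lie 0.24 to 0.41 above those with R1881 in all 13 genes, and MT-ATP8 has the widest spread.

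Among the 7 mRNAs of complex I, MT-ND3 separated the groups best. With R1881 it was at 277, 307 and 331 (lowest, median, highest), and in the combination at 410, 394, 424, 365 and 400. No value of one group fell within the other (log2 fold change 0.38, SE 0.047, adjusted p = 3.00e-06 from limma). In the 17272 genes, 10.8% were higher and 12.6% were lower without overlap between the groups, and 3 of 13 mitochondrially encoded mRNAs (MT-CO1, MT-CO3 and MT-ND3) were higher without overlap. MT-ND4, a proton-pumping core subunit, rose from 3080 ± 210 to 3804 ± 341 (log2 fold change 0.30, SE 0.056, adjusted p = 0.000231 from limma), and MT-ND2 from 1248 ± 90.8 to 1582 ± 148 (log2 fold change 0.34, SE 0.059, adjusted p = 0.000114 from limma). MT-ND4L, encoded on the same mRNA as MT-ND4, rose by 0.28 (SE 0.065) and MT-ND5 by 0.24 (SE 0.050). MT-ND1 had the smallest change, from 789 ± 75.3 to 928 ± 62.5 (log2 fold change 0.24, SE 0.064, adjusted p = 0.00530 from limma).

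MT-ND6 is the 1 mRNA of the 13 that lies on the minus strand, and it is known to lack the usual poly(A) tail. Its value was 7.86, 9.88 and 11.2 (lowest, median, highest) with R1881 and 14.1, 14.5, 13.1, 11.8 and 11.1 in the combination. Only replicate 5 of the combination fell within the R1881 range (log2 fold change 0.40, SE 0.091, adjusted p = 0.00152 from limma). MT-CYB encodes cytochrome b, the haem-bearing core of complex III. It was at 1339, 1601 and 1784 with R1881 and at 1821, 2032, 2049, 1697 and 1917 in the combination, with replicate 4 as the library that overlapped (log2 fold change 0.26, SE 0.061, adjusted p = 0.00157 from limma).

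MT-ATP6 forms the proton channel of ATP synthase together with the c-ring, and MT-ATP8 is a small subunit beside it. MT-ATP6 was at 1335, 1487 and 1730 with R1881 and at 1814, 1879, 1945, 1481 and 1839 in the combination. In 4 of 5 combination libraries it exceeded every R1881 library, and in replicate 4 it was below the R1881 median (log2 fold change 0.27, SE 0.067, adjusted p = 0.00314 from limma). MT-ATP8 was at 17.5, 27.3 and 43.2 with R1881 and at 42.0, 40.8, 34.5, 36.0 and 37.2 in the combination, so the groups overlapped (log2 fold change 0.41, SE 0.143, adjusted p = 0.0251 from limma). It had the largest fold change of the 13 and the weakest test. Without combination replicate 1 or without combination replicate 2 its adjusted p was 0.0671 and 0.0606 by limma, and it did not pass. With the R1881 libraries 51 to 55 alone as the control, MT-ATP8, MT-ND1 and MT-ATP6 did not pass, at log2 fold changes of 0.35, 0.16 and 0.19 (adjusted p = 0.157, 0.0572 and 0.0586 from limma).

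Together the 13 mRNAs took 1.94% ± 0.106 (SD, n = 10) of the reads with R1881, with 1.80% at the lowest, 1.90% at the median and 2.16% at the highest. In the combination they took 2.47%, 2.55%, 2.73%, 2.16% and 2.54%, with a mean of 2.49% ± 0.207 (SD, n = 5). All 5 combination libraries lay above the R1881 libraries, with replicate 4 only just above the highest of them. The 73 nuclear-encoded subunits together took 0.997% ± 0.0147 with R1881 and 1.02% ± 0.00650 in the combination, over ranges of 0.969% to 1.01% and 1.01% to 1.02%. The share of the mitochondrial mRNAs thus moved by 0.547 percentage points and that of the nuclear subunits by 0.0196.

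The other mitochondrially encoded RNAs and the nuclear copies of the mitochondrial genome were examined beside the mRNAs. MT-RNR2, the 16S rRNA, rose from 7765 ± 399 to 9871 ± 796 (log2 fold change 0.34, SE 0.048, adjusted p = 1.06e-05 from limma), and MT-RNR1, the 12S rRNA, from 1148 ± 83.2 to 1303 ± 86.5 (log2 fold change 0.18, SE 0.051, adjusted p = 0.00678 from limma). MT-RNR1 did not pass with R1881 libraries 71 to 75 alone as the control (adjusted p = 0.0655 from limma). With the replicate block it did not pass either (adjusted p = 0.0813 from limma). Of the 7 rRNA and tRNA rows, MT-RNR2 and MT-RNR1 were higher and 5 did not pass, and 4 were higher with library totals. These counts and the next are to be read against 22.8% higher and 23.7% lower of all genes. With library totals, 5326 of 17272 genes were higher. Of 20 rows for nuclear copies of the mitochondrial genome, 18 were higher and none was lower, with a median log2 fold change of 0.31. MTCO1P12, the copy of MT-CO1 on chromosome 1, went from 3252 ± 152 to 3952 ± 278 (log2 fold change 0.28, SE 0.043, adjusted p = 3.10e-05 from limma), beside 0.28 for MT-CO1 itself. Windows of 50 bases, the read length, were taken at each base of every coding sequence and looked up in GRCh38. Of the windows of MT-CO1, 50.6% stood elsewhere in the genome without a mismatch, of MT-ATP6 46.9% and of MT-ND2 43.6%, but of MT-CYB 1.65%, of MT-ND4 3.54%, of MT-ND5 4.66%, and of MT-ND3 and MT-ND4L 0%. The 5 mRNAs with less than 5% of such windows rose by 0.24 to 0.38, and the 6 with more than 25% by 0.24 to 0.34. The part of shared reads in these values was not tested. With the rows of copies that held at least 10% of the windows added to their genes, an alternative added after the data had been seen, 13 of 13 were higher and the median was 0.28.

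Per length, the order of the mitochondrial mRNAs was led by the subunits of complex IV. In value per kilobase with R1881, MT-CO1 was at 3973 ± 193, MT-CO3 at 3500 ± 240 and MT-CO2 at 3155 ± 173 (SD, n = 10). The ranges of neighbours in this order overlapped between MT-CO1 and MT-CO3 and between MT-CO3 and MT-CO2. MT-ND4 at 2235 ± 152 and MT-ATP6 at 2183 ± 191 followed and were not separated by their spread. MT-CYB at 1390 ± 117 and MT-ND2 at 1198 ± 87.2 overlapped, as did MT-ND3 at 887 ± 56.9, MT-ND1 at 825 ± 78.8 and MT-ND4L at 802 ± 83.2. MT-ND5 at 479 ± 31.6, MT-ATP8 at 141 ± 33.7 and MT-ND6 at 18.5 ± 2.33 stood lower, each apart from its neighbours. With the copies added, MT-CO1 was at 6082 ± 292 per kilobase and MT-ATP6, at 3420 ± 298, passed MT-ND4. MT-ND2 (1679 ± 121) then passed MT-CYB, and MT-ND1 (1078 ± 104.5) passed MT-ND3. MT-ATP8 shares 46 of its 207 bases with MT-ATP6 and MT-ND4L shares 7 of its 297 with MT-ND4. How reads in these overlaps were counted is not given in the sources used here.

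The nuclear-encoded subunits did not follow the mitochondrial ones. Of 73, 16 were lower with darolutamide, 1 was higher and 56 did not pass, so that 21.9% were lower where the share of all genes was 23.7%, and 1.37% were higher where the share of all genes was 22.8%. The median log2 fold change was -0.06 on the deposited scale, but 0.01 with library totals and 0.02 with totals that left out the mitochondrial genes, with 8 lower and 8 higher under the first and 6 lower and 9 higher under the second. Over all genes, library totals gave 3030 lower and 5326 higher, in place of 4098 and 3946. These scalings moved the median of all genes by 0.065 and 0.076. The fold changes ran from -0.44 to 0.32, and 5 subunits were lower and 1 was higher without overlap between the groups. By complex, the medians were -0.05 for complex I, -0.11 for complex III, -0.02 for complex IV and -0.06 for complex V on the deposited scale, and with library totals 0.02, -0.04, 0.05 and 0.01.

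**Figure D2:**
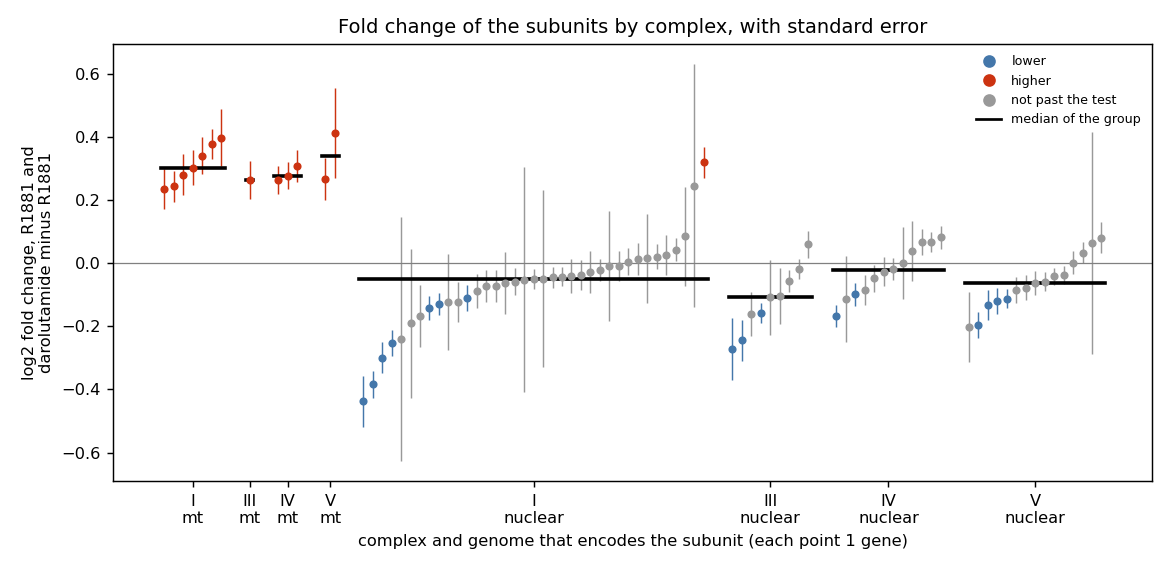
Log2 fold change of each subunit with its standard error, 1 point per gene, grouped by complex and by the genome that encodes it (mt for mitochondrial), with the median of each group as a line and the result of limma's test as the colour. All 13 mitochondrial mRNAs lie above 0, and the nuclear medians lie between -0.11 and -0.02.

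In complex I, 7 of 37 nuclear subunits were lower and 1 was higher. All 8 were among the 30 accessory subunits, which surround the catalytic core, so that 23.3% of these were lower where the share of all genes was 23.7%. The difference between core and accessory subunits was not tested. The nuclear core subunits carry the flavin and iron-sulphur clusters that lead electrons from NADH. None of the 7 passed limma's test, with log2 fold changes of -0.19 to 0.25. Without combination replicate 4 the core subunit NDUFS8 was lower, and with the GC correction NDUFV1 was higher (0.12, adjusted p = 0.0470 from limma). NDUFS1, the largest of them, was at 224 ± 10.2 and 228 ± 12.9 (log2 fold change 0.02, SE 0.040). The SE of NDUFS7, NDUFS8, NDUFV1 and NDUFV2 was 0.14 to 0.39, so that a change of the median size seen in the mitochondrial mRNAs was not detectable in these 4.

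NDUFC2, a membrane-arm accessory subunit on chromosome 11 (chr11:78068297-78079862, minus strand), had the smallest p among the nuclear subunits. It was at 65.5, 68.7 and 77.5 (lowest, median, highest) with R1881 and at 51.3, 53.6, 57.3, 50.7 and 53.1 in the combination. Every combination library was below every R1881 library (log2 fold change -0.38, SE 0.043, adjusted p = 8.93e-07 from limma). NDUFC1, its neighbour in the complex, had the largest fall and is named here after its value was seen. It was at 41.2, 50.9 and 55.1 with R1881 and at 37.2, 33.3, 32.3, 47.6 and 34.8 in the combination, where replicate 4 alone lay within the R1881 range (log2 fold change -0.44, SE 0.081, adjusted p = 0.000236 from limma). NDUFB10, on chromosome 16 (chr16:1959538-1961975, plus strand), was at 99.1, 103 and 111 with R1881 and at 84.8, 82.6, 73.8, 95.6 and 89.0 in the combination, without overlap (log2 fold change -0.30, SE 0.050, adjusted p = 7.90e-05 from limma). NDUFA6 was at 49.9, 56.3 and 58.6 with R1881 and at 47.1, 44.6, 45.2, 48.8 and 46.4 in the combination, also without overlap (log2 fold change -0.25, SE 0.041, adjusted p = 6.53e-05 from limma). NDUFS5, NDUFV3 and NDUFAB1, the last of which is also the acyl carrier protein of mitochondria, fell by less, at log2 fold changes of -0.14, -0.13 and -0.11.

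NDUFB4 was the 1 nuclear subunit that rose. This membrane-arm accessory subunit lies on chromosome 3 (chr3:120596328-120602507, plus strand). It was at 167, 181 and 200 with R1881 and at 226, 248, 204, 250 and 225 in the combination, without overlap (log2 fold change 0.32, SE 0.049, adjusted p = 3.57e-05 from limma). Its change ranged from 0.29 to 0.40 over 29 alternative settings and passed in all 29. Of its 50-base windows, 22.8% stood elsewhere in the genome.

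The nuclear genes of respiration are known to be driven in part by the factors NRF1, GABPA (of the ETS family) and ERRα, so their promoters were searched. RefSeq promoters of GRCh38.p14, from 250 bases before to 50 after the start, were found for 60 of 73 nuclear subunits. The letters GCGCATGCG (NRF1), on either strand, stood in 9 of 60, or 15%, against 3.84% of the 9968 promoters matched to the table's genes and 2.10% of all 27305 promoters. The letters CCGGAAGT (ETS) stood in 8 of 60, or 13.3%, against 8.87% and 4.44%. The letters TCAAGGTCA (ERRα) stood in 0 of 60, against 0.181% and 0.359%. Among the 12 lower subunits with a promoter, 1 held the NRF1 letters and 1 the ETS letters, and among the 47 that did not pass 7 held each. Such a match describes the letters and is not evidence that a factor binds. The promoters of 3 genes are shown, of the highest subunit, of the lowest, and of a lower subunit with the ETS letters, 5′ to 3′ along the gene with the matched letters in capitals. They are chr3:120596086-120596385 (plus strand), chr4:139302502-139302801 (minus strand) and chr5:132866392-132866691 (plus strand).

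NDUFB4: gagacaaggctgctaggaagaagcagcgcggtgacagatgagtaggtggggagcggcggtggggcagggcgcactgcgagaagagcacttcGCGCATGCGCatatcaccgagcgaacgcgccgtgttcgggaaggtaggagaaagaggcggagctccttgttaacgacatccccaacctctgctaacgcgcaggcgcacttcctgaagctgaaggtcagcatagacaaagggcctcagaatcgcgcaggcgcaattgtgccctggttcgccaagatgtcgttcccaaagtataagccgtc
NDUFC1: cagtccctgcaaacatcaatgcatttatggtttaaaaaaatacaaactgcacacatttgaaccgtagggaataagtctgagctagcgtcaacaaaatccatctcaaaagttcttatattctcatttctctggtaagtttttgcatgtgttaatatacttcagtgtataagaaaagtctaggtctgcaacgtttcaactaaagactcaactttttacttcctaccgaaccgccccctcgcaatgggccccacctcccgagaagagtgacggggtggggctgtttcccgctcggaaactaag
UQCRQ: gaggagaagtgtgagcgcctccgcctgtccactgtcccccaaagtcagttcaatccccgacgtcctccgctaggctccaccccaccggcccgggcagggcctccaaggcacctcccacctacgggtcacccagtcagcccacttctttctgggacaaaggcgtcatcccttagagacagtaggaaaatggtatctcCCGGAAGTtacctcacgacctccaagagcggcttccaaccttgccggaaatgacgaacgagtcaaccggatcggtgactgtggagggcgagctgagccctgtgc

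In the promoter of NDUFB4 the NRF1 letters occur on both strands, 1 base apart, since the run in capitals reads the same on both. The promoter of NDUFC1 holds none of the 3 motifs, and its GC content is 42.7% against 59.3% for NDUFB4 and 61.0% for UQCRQ.

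**Figure D3:**
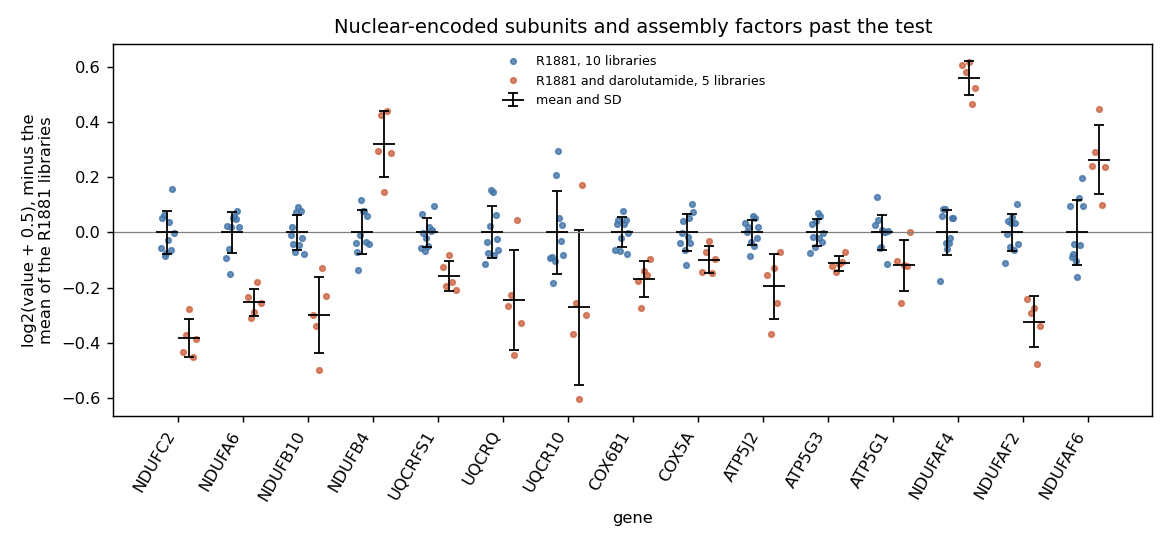
Log2(value + 0.5) in each library, minus the mean of the 10 R1881 libraries, for the nuclear subunits and assembly factors named by the rule, with 1 point per library and the mean and SD of each group. NDUFB4 and NDUFAF4 lie above the R1881 libraries without overlap, while NDUFC2, NDUFA6, NDUFB10, UQCRFS1, COX6B1 and NDUFAF2 lie below.

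In complex III, 3 of 9 nuclear subunits (33.3%) were lower and none was higher, where the shares of all genes were 23.7% and 22.8%. UQCRFS1, the Rieske iron-sulphur protein that passes electrons towards cytochrome c1, was at 158, 165 and 177 with R1881 and at 151, 144, 156, 146 and 143 in the combination, without overlap (log2 fold change -0.16, SE 0.033, adjusted p = 0.000687 from limma). Of its 50-base windows 61.3% stood elsewhere, and 47.3 on the same scale, as the mean of all libraries, was listed for the pseudogene UQCRFS1P1. UQCRQ, a small accessory subunit, was at 151, 160 and 182 with R1881 and at 136, 139, 120, 168 and 130 in the combination, where replicate 4 alone was within the R1881 range (log2 fold change -0.24, SE 0.064, adjusted p = 0.00459 from limma). UQCR10 was at 53.8, 58.9 and 75.3 with R1881 and at 47.3, 51.2, 40.1, 69.0 and 49.7 in the combination, with replicate 4 again among the R1881 libraries (log2 fold change -0.27, SE 0.099, adjusted p = 0.0318 from limma). It passed in 19 of 29 alternative settings, and did not with library totals (adjusted p = 0.101 from limma), with the replicate block (adjusted p = 0.148 from limma), with R1881 libraries 51 to 55 or 71 to 75 alone, or without R1881 replicate 5 (adjusted p = 0.0509) or combination replicate 1, 2, 3 or 5 (adjusted p = 0.0811, 0.0547, 0.118 and 0.0647 from limma). CYC1 (cytochrome c1) and the core proteins UQCRC1 and UQCRC2 did not pass, at log2 fold changes of -0.11, -0.16 and -0.02. Without combination replicate 4, 6 of the 9 were lower, with CYC1 (-0.23, adjusted p = 0.0482), UQCRC1 (-0.23, adjusted p = 0.00507) and UQCR11 (-0.21, adjusted p = 0.0101) added by limma. In that setting the count of lower genes rose over the whole set too, to 4781 of 17272 in place of 4098.

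In complex IV, 2 of 12 nuclear subunits (16.7%) were lower and none was higher, where the shares of all genes were 23.7% and 22.8%. COX6B1, which faces the intermembrane space and joins the monomers of the complex, was at 174, 186 and 194 with R1881 and at 163, 152, 167, 165 and 172 in the combination, without overlap (log2 fold change -0.17, SE 0.035, adjusted p = 0.000648 from limma). COX5A was at 141, 152 and 164 with R1881 and at 138, 145, 149, 138 and 143 in the combination, and the groups overlapped (log2 fold change -0.10, SE 0.037, adjusted p = 0.0357 from limma). The fold change of COX5A was -0.02 with totals that left out the mitochondrial genes, and it passed in 15 of 29 alternative settings. Several subunits of complex IV have isoforms that differ between tissues. COX4I1 was at 346 ± 17.1 and 335 ± 20.4 (log2 fold change -0.05, SE 0.042), COX6A1 at 144 ± 5.45 and 142 ± 6.31, COX7A2 at 145 ± 8.09 and 142 ± 9.46, and COX7B at 118 ± 7.31 and 111 ± 6.66. COX7B2, the testis form, was at 1.51 ± 0.296 and 1.50 ± 0.209. None of these 5 passed limma's test. The partners COX4I2, COX6A2, COX6B2, COX7A1 and COX8C are not rows of the table. NDUFA4, now counted with complex IV, was at 329 ± 13.5 and 349 ± 17.0 (log2 fold change 0.08, adjusted p = 0.0704 from limma), and its isoform NDUFA4L2 was at 1.03 ± 0.361 and 1.14 ± 0.778. COX7A2L, which links complexes III and IV, was at 82.3, 87.1 and 90.9 with R1881 and at 81.9, 81.7, 85.6, 74.9 and 81.6 in the combination (log2 fold change -0.10, SE 0.035, adjusted p = 0.0210 from limma). It passed in 21 of 29 alternative settings. Among others, it did not pass with library totals (-0.03, adjusted p = 0.483 from limma) or without combination replicate 4 (adjusted p = 0.0730 from limma).

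In complex V, 4 of 15 nuclear subunits (26.7%) were lower and none was higher, where the shares of all genes were 23.7% and 22.8%. All 4 belong to the membrane part or the stalk, and a difference between these parts and the F1 part was not tested. The 5 subunits of the catalytic F1 part did not pass limma's test, at log2 fold changes of -0.08 to 0.06, but 2 of them were lower with the GC correction. The upper end is ATP5D (SE 0.35), which was at -0.41 without combination replicate 4. ATP5B, the catalytic beta subunit, was at 1525 ± 43.1 and 1481 ± 28.5 (log2 fold change -0.04, SE 0.026), and none of its 50-base windows stood elsewhere. ATP5J2, the f subunit, was at 118, 127 and 131 with R1881 and at 113, 97.2, 115, 105 and 119 in the combination, where only replicate 5 reached the R1881 range (log2 fold change -0.20, SE 0.042, adjusted p = 0.000939 from limma). ATP5G3 and ATP5G1 are different genes for the same mature c subunit, of which the proton-driven ring is built. ATP5G3 went from 187 ± 6.39 to 173 ± 3.11 (log2 fold change -0.11, SE 0.029, adjusted p = 0.00429 from limma) and ATP5G1 from 79.7 ± 3.63 to 73.3 ± 4.61 (log2 fold change -0.12, SE 0.042, adjusted p = 0.0280 from limma). The third c-subunit gene, ATP5G2, was at 279 in both groups (log2 fold change 0.00). With library totals ATP5G3 and ATP5G1 changed by -0.04 and -0.05 and did not pass.

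Some subunits had low values or shared much of their sequence with copies. NDUFV2, a core subunit of complex I, was at 1.48 ± 0.354 and 1.50 ± 0.379, while its processed pseudogene NDUFV2P1 was at 89.7 as the mean of all libraries. Of the windows of NDUFV2, 33.1% stood in NDUFV2P1. NDUFA7 was at 0.664 ± 0.299 and 0.651 ± 0.271. UQCRHL, a gene copy of UQCRH, was at 108 beside 240 for UQCRH with R1881, and 54.5% of the windows of UQCRH stood in it. The level of such genes and of their copies depends on how reads with several places were assigned, which is not given in the sources used here.

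In the GC-rich subunits single libraries stood apart. The 12 nuclear subunits whose transcripts had a GC content of at least 58%, a limit chosen after the data had been seen, lay 1.01 above the mean of the combination libraries in replicate 4 and 0.64 below it in replicate 3, as medians on the log2 scale. In the 26 subunits under 45% GC the same medians were -0.07 and 0.07. Across the 73 subunits, the Spearman correlation of GC content with the deviation was 0.72 in replicate 4 and -0.70 in replicate 3. The R1881 libraries held such trends too, from -0.69 in replicate 9 to 0.67 in replicate 6. The points share their library, and the values are a description. The 7 subunits named next were chosen after their values were seen. NDUFS7 was at 6.50, 7.36, 3.43, 38.3 and 6.42 in the combination and at 4.52 to 16.1 with R1881. NDUFB7 was at 10.1, 13.6, 4.14, 49.8 and 11.5, and ATP5D, the delta subunit of the F1 part, at 16.3, 20.1, 7.70, 75.7 and 17.1. NDUFA11, NDUFA13, NDUFS8 and NDUFV1 had the same shape, with replicate 4 highest and replicate 3 lowest. None of the 7 passed limma's test with all libraries.

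**Figure D4:**
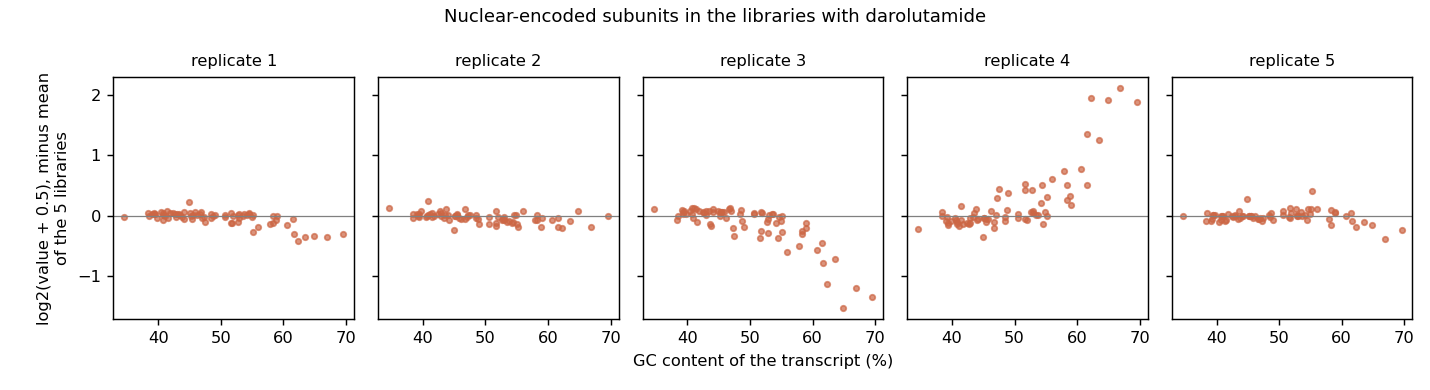
Log2(value + 0.5) of the 73 nuclear-encoded subunits in each combination library, minus the mean of the 5 libraries, against the GC content of the transcript in percent, with 1 point per gene. In replicate 4 the points rise with GC content (Spearman correlation 0.72) and in replicate 3 they fall (-0.70).

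Without combination replicate 4, 21 nuclear subunits were lower and 4 were higher, in place of 16 and 1. NDUFB7 (log2 fold change -0.72, adjusted p = 0.0352), NDUFS8 (-0.50, adjusted p = 0.0104), COX8A (-0.30, adjusted p = 0.00559) and ATP5I (-0.33, adjusted p = 0.00383) were then among the lower ones by limma, and COX7C (0.08), NDUFA4 (0.11) and ATP5O (0.13) joined NDUFB4 among the higher ones. Without replicates 3 and 4 together, 17 were lower and 1 was higher. With a correction for GC content the counts were 23 and 4. Over all 17272 genes, 4781 were lower and 4096 higher without replicate 4, in place of 4098 and 3946. Without replicates 3 and 4 the counts over all genes were 4053 and 3641, and with the GC correction 4656 and 4409 of 14680.

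The assembly factors of complex I moved apart. NDUFAF4, which helps to build the matrix arm, had the largest rise of the 99 genes. It was at 20.1, 23.0 and 24.2 with R1881 and at 34.9, 34.3, 35.2, 31.7 and 33.0 in the combination, far from overlap (log2 fold change 0.56, SE 0.048, adjusted p = 2.48e-08 from limma). NDUFAF6 rose from 18.9 ± 1.62 to 22.7 ± 2.02 (log2 fold change 0.26, SE 0.066, adjusted p = 0.00332 from limma). It did not pass with R1881 libraries 51 to 55 alone as the control (0.17, adjusted p = 0.073 from limma). NDUFAF2, which acts late in assembly, was at 19.8, 21.7 and 23.1 with R1881 and at 18.1, 17.4, 17.6, 15.3 and 16.9 in the combination, without overlap (log2 fold change -0.32, SE 0.049, adjusted p = 2.70e-05 from limma). Of its windows 53.1% stood elsewhere in the genome. The other 4 factors did not pass, so that 1 of 7 was lower and 2 were higher. Over all genes, 23.7% were lower and 22.8% were higher. With library totals, 3030 of 17272 genes were lower and 5326 were higher. Of 10 other genes that assemble complex I, 4 were lower and none was higher (2 and 2 with library totals), with TIMMDC1, a membrane-arm factor, from 136 ± 2.84 to 112 ± 2.23 (log2 fold change -0.27, SE 0.026, adjusted p = 9.08e-08 from limma) and FOXRED1 from 55.8 ± 4.39 to 47.6 ± 4.81 (log2 fold change -0.23, SE 0.064).

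The other genes of respiration were counted in the same way, with no test of the lists. These counts are to be read against the 23.7% lower and 22.8% higher of all genes. Those with library totals, here and in the next paragraphs, are to be read against 3030 lower and 5326 higher of 17272. Of 25 assembly factors of complex IV, 10 were lower and none was higher (7 and 4 with library totals), with CMC2 from 91.9 ± 4.92 to 46.9 ± 2.49 (log2 fold change -0.96, SE 0.044, adjusted p = 3.57e-12 from limma) and COX18, which inserts part of MT-CO2 into the membrane, from 82.5 ± 5.64 to 60.3 ± 1.69 (log2 fold change -0.45, SE 0.047). Of 6 factors of complex III, UQCC2 was lower (-0.17) and UQCC1 was higher (0.26), and with library totals none was lower and 3 were higher. The 5 listed genes for the assembly or inhibition of complex V held 2 that rose, ATPIF1, the inhibitor of ATP hydrolysis (0.18), and ATPAF1 (0.14), and 4 with library totals. The 4 subunits of complex II, which is encoded by the nucleus alone, did not pass, at log2 fold changes of -0.01 to 0.06, while of its assembly factors SDHAF3 rose (0.27) and SDHAF2 fell (-0.25). SDHAF2 passed in 17 of 29 alternative settings, and did not with library totals (adjusted p = 0.121 from limma), which gave 0 lower and 3 higher of the 8 genes. It also did not pass without R1881 replicate 4 or 9 or without combination replicate 1, 2, 3 or 5, at log2 fold changes of -0.26 to -0.18. Of 13 genes for electron carriers and coenzyme Q, 2 were lower and 3 higher (1 and 5 with library totals). CYCS, cytochrome c, was at 272 ± 17.3 and 240 ± 18.9 (log2 fold change -0.18, SE 0.052, not passing with library totals) and PDSS1 fell by 0.25 on the log2 scale, while PDSS2, its partner in making the coenzyme Q tail, rose by 0.46 and COQ5 by 0.21. Among 9 genes of ADP and ATP exchange 6 were lower (4, and 1 higher, with library totals), with the mitochondrial creatine kinases CKMT1A and CKMT1B, near-identical copies whose reads cannot be told apart with certainty, at -0.54 each.

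Genes that act on the mitochondrial genome went both ways. Of 17 for its replication and transcription, 4 were lower and 4 were higher (4 and 6 with library totals). TFAM, which packs the genome and starts transcription, rose from 107 ± 5.23 to 119 ± 6.78 (log2 fold change 0.16, SE 0.042, adjusted p = 0.00387 from limma), as did MTERF2 (0.37) and POLG2, the accessory subunit of the polymerase (0.39). TFAM did not pass with R1881 libraries 51 to 55 alone as the control (0.11, adjusted p = 0.0811 from limma). MTERF4 fell from 116 ± 4.97 to 86.0 ± 1.82 (log2 fold change -0.42, SE 0.034) and TFB2M, the partner of the mitochondrial RNA polymerase, from 42.0 ± 2.21 to 34.3 ± 2.27 (log2 fold change -0.29, SE 0.047). Of 20 genes for RNA processing and stability, 5 were lower and 4 higher (2 and 5 with library totals), among them FASTKD5 (-0.32) and SLIRP (-0.24), which binds mitochondrial mRNAs, and REXO2 (0.51) and PTCD2 (0.36). Of 86 rows with names of mitochondrial ribosomal proteins, 28 were lower and 4 higher, with a median of -0.06, but 20 and 12 with a median of 0.01 when library totals were used. MRPS18A fell by 0.77 and MRPL33 by 0.42 on the log2 scale, and MRPS27 and MRPL35 rose by 0.32 and 0.26. Of 23 genes of protein import and cristae, 10 were lower and 1 was higher (5 and 3 with library totals), with TIMM23, the channel of the inner membrane, from 107 ± 4.30 to 68.8 ± 3.72 (log2 fold change -0.63, SE 0.039, adjusted p = 2.98e-10 from limma), TIMM17A at -0.40 and TOMM7 at 0.10. TOMM7 passed in 25 of 29 alternative settings.

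Of 9 regulators of the nuclear genes that were in the table, 2 were lower and 1 was higher. The higher one was TFAM. PPRC1, a coactivator of the PGC-1 family, fell from 61.9 ± 3.99 to 49.8 ± 5.66 (log2 fold change -0.32, SE 0.063, adjusted p = 0.000470 from limma), and GABPB1 from 57.0 ± 3.70 to 51.5 ± 2.47 (log2 fold change -0.14, SE 0.048, adjusted p = 0.0212 from limma). GABPB1 did not pass with library totals (-0.07, adjusted p = 0.218 from limma), which left 1 regulator lower and 1 higher, nor with the replicate block, with R1881 libraries 71 to 75 alone or without combination replicate 1 (adjusted p = 0.0726 from limma). The mRNAs of NRF1 (0.00, SE 0.059), GABPA (0.01, SE 0.057), YY1 (-0.01, SE 0.044), ESRRA (-0.09, SE 0.162), PPARGC1B (-0.13, SE 0.082) and CHCHD2 (-0.11, SE 0.071) did not pass. PPARGC1A is not a row of the table.

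The runs of library numbers within R1881 give a measure of what moves without darolutamide. Between libraries 71 to 75 and 51 to 55, limma called 0 of the 99 genes, edgeR also called 0, and 8 had an unadjusted p under 0.05. Over all genes 0.851% were lower and 0.249% were higher in libraries 71 to 75. The 13 mitochondrial mRNAs differed by -0.16 to -0.005 between these runs, each a little lower in 71 to 75, and the 73 nuclear subunits by -0.20 to 0.50. Their mean log2 level per library, mitochondrial mRNAs minus nuclear subunits, was 2.94 to 3.31 in the R1881 libraries and 3.52, 3.54, 3.71, 3.10 and 3.48 in the combination. Combination replicate 4 lay within the R1881 range and the other 4 above it. In complex IV the difference was 4.80 to 5.04 with R1881 and 5.22, 5.25, 5.38, 5.00 and 5.25 in the combination.

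**Figure D5:**
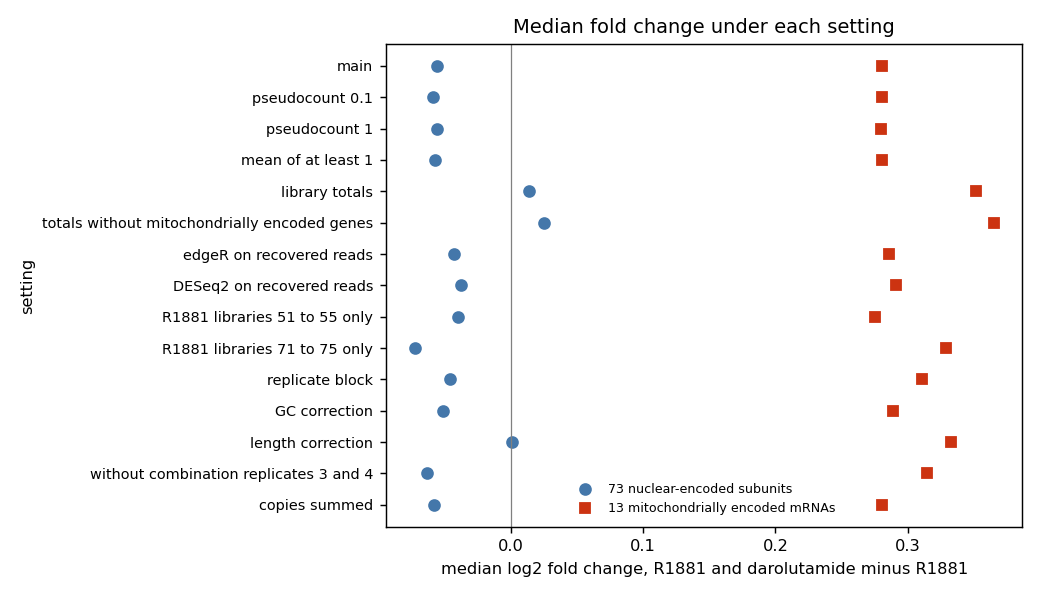
Median log2 fold change of the 13 mitochondrially encoded mRNAs (squares) and of the 73 nuclear-encoded subunits (circles) under the reported fit (main) and 14 alternative settings. The mitochondrial median stays between 0.28 and 0.37, while the nuclear one moves from -0.07 to 0.02 and is above 0 with the scalings by totals and with the length correction.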

How the data were processed

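RNA of LNCaP cells, selected with poly-T beads and prepared with a stranded kit, was read in 50 cycles from one end. Alignment by the authors used STAR and GRCh38, counting per gene used featureCounts, and versions are not given in the sources used here. The deposited values are a scaled signal, called CPM by the authors: whole reads divided by 1 factor per library (100% whole within 0.001 reads), with column sums of 1005403 to 1078567. The labels set the groups. The members and gene lists were chosen with earlier results of these data known. limma (3.58.1, trend, two-sided) was fitted to log2(value + 0.5) of all 17272 genes without a filter, with Benjamini-Hochberg adjustment, and was checked on simulated data.

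Named were all mitochondrial mRNAs, up to 3 lower and 3 higher subunits per complex by smallest p with a mean of at least 1, isoform pairs, 3 NDUFAF genes, all regulators and up to 2 genes per direction in other lists. Other members were named after their values were seen. No Y-linked gene was named, and 1 member is not reported here by name. Positions, transcript length and GC content are of GENCODE version 44. All 99 members were matched, 81 by symbol and 18 by an older symbol. Alternatives were pseudocounts of 0.1 and 1, a minimum mean of 1, other scalings, edgeR (4.0.16) and DESeq2 (1.42.0) on recovered reads, either run of R1881 library numbers, a replicate block, GC and length corrections over 14680 genes, libraries left out, and, added after the data had been seen, copies summed.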

Additional observations from a re-analysis of the deposited data

Results flagged for a closer look

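Values in which 1 library stood far from its own group were looked for in the named genes and summary measures. Of 128 groups of values examined, 15 held such a library. Chance flags about 1 in 20. However, NDUFS7, NDUFB7, NDUFA11, NDUFA13, ATP5D, NDUFS8 and NDUFV1 were included after their values were seen. The counts can therefore not be set against that rate. Combination replicate 4 accounted for 10 of the 15, in part through these subunits. It was highest in COX8A (145, others 61.4 to 83.5), NDUFA4L2 (2.50, others 0.528 to 0.971), NDUFS7 (38.3, others 3.43 to 7.36), NDUFB7 (49.8, others 4.14 to 13.6), NDUFA11 (24.2, others 2.42 to 5.15), NDUFA13 (14.1, others 2.82 to 4.92), ATP5D (75.7, others 7.70 to 20.1) and NDUFS8 (64.2, others 16.0 to 25.2). It was lowest in MT-ATP6 (1481, others 1814 to 1945) and in the log2 difference between the mitochondrial and nuclear subunits of complex V (0.388, others 0.685 to 0.772).

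Among the R1881 libraries, replicate 6 was highest in COX8A (120, others 83.7 to 103), NDUFA4L2 (1.98, others 0.703 to 1.20) and NDUFS7 (16.1, others 4.52 to 10.6). R1881 replicate 9 was highest in MT-ND4L (294, others 201 to 249), and R1881 replicate 5 was lowest in the log2 ratio of MT-RNR2 to MT-RNR1 (2.56, others 2.71 to 2.86). In these libraries the deviation of the nuclear subunits rose with GC content in combination replicate 4 and R1881 replicates 5 and 6 (Spearman correlations 0.72, 0.61 and 0.67) and fell with it in R1881 replicate 9 (-0.69). Libraries without a flag held trends of like size, as combination replicate 3 (-0.70) and R1881 replicates 7 and 10 (-0.65 and -0.63). The part of GC content in single values was not tested.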

How the results depend on the processing

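The mitochondrial result kept its direction under all alternatives, with 10 to 13 of 13 mRNAs higher and medians of 0.25 to 0.37. The nuclear counts of 16 lower and 1 higher depended on the scaling: 8 and 8 with library totals, and 6 and 9 with totals without mitochondrially encoded genes, with medians of 0.0138 and 0.0246. With these scalings the median was -0.037 and -0.025 for complex III, 0.049 and 0.0604 for complex IV and 0.00887 and 0.021 for complex V, and 0.0269 for complex I with the second. The length correction gave medians of 0.00103 over the nuclear subunits, -0.0451 for complex III and 0.0339 for complex IV, with 2 higher, and the GC correction gave 4 higher. With R1881 libraries 51 to 55 only, the complex III median was -0.0541. Leaving out 1 library at a time gave 12 to 21 lower and 1 to 4 higher nuclear subunits, with 4 without combination replicate 4, and complex III medians of -0.213 to -0.0696. The causes of these shifts were not tested. At this depth limits lie in low or GC-rich genes, in genes with copies and, for small changes, in the scaling. COX5A, COX7A2L and ATP5G3, for example, passed in 15, 21 and 24 of 29 alternative settings.

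The labels give both groups replicate numbers, but same-numbered libraries did not deviate together (correlations -0.139 to 0.335), and none of the 5 combination libraries (0) correlated best with the R1881 library of its number. With the replicate block, 8 nuclear subunits were lower and 2 higher, and all 13 mitochondrial mRNAs stayed higher. R1881 replicates 6 to 10 have no combination library of their number. In that fit the fold change thus rests on R1881 replicates 1 to 5 and the combination. Over all genes it gave 3165 lower and 3077 higher.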
